A study of Homo sapiens with 15 samples.

Results

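Kruppel-like factors KLF2, KLF4, KLF6, KLF9 and KLF15 were followed in ZR-75-1 cells, a line from human breast cancer that expresses the estrogen receptor, after 6 h with 10 nM MPA, PROG, DHT or DEX or with vehicle. The members were taken by gene symbol from the platform annotation, which gave 5 genes with 1 probe set each, of 14361 genes and 14841 probe sets with a symbol. The groups were MPA (medroxyprogesterone acetate, a synthetic progestin), PROG (progesterone), DHT (dihydrotestosterone, an androgen), DEX (dexamethasone, a synthetic glucocorticoid) and vehicle (0.1% ethanol), with 3 arrays each and 15 in all. These full names are the usual reading of the abbreviations. All groups were grown in the same serum-containing medium, the vehicle arrays are also called untreated, and no source used here gives the solvent of the compounds. A single cell line was used, and no label ties the arrays of a group to separate cultures, so the p-values cover only the variation among these arrays, possibly technical.

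Kruppel-like factors are transcription factors that bind GC-rich and CACCC-type DNA through zinc fingers at their C-terminal end, and members of the family activate or repress genes in differentiation, metabolism and growth control. Several are known targets of steroid hormones. KLF9 is induced by glucocorticoids in many tissues and cooperates with the progesterone receptor in endometrial cells, KLF15 is a glucocorticoid target in liver, muscle and airway cells, and KLF4 and KLF6 respond early to many stimuli. Of these genes, KLF9 rose with all 4 compounds, KLF4 and KLF6 rose with MPA and PROG, KLF2 passed the test with no compound, and KLF15 was too dim to be read.

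Values are RMA levels on the log2 scale, and differences are log2 differences, the group named first minus the second, ± the standard error of the limma fit. Called probe sets have a limma Benjamini-Hochberg adjusted p under 0.05 over all 14841 probe sets of a comparison, and intervals are 95% intervals of the same fit for that probe set alone. Array medians lay between 3.69 and 3.73, and a group mean under the median of all values, 3.7, is called dim. Arrays of a group correlated with r of 0.997 to 0.998 across probe sets. All 10 probe sets of 9 luminal marker genes were above that median in every group, while both measured basal markers were below it. Of the fibroblast markers, LUM lay at 3.91 to 4.13 in the group means and DCN below the median. Of 5 listed markers of blood or endothelial cells, CD68 was the 1 measured, with group means of 7.59 to 7.81. This 1 gene cannot show whether such cells were present, and its part in the results below was not tested. In bulk RNA, fewer cells with a transcript and less transcript per cell cannot be told apart.

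The RefSeq windows at the starts of the genes that were called are shown to let their base composition be compared beside the expression values. Each runs from 250 bases before to 50 bases after the gene's start in GRCh38.p14 and is written 5′ to 3′ on the gene's minus strand. KLF9 is at chr9:70414608-70414907, KLF4 at chr9:107489720-107490019 and KLF6 at chr10:3785160-3785459. Capitals mark exact matches, on either strand, to AGAACA and ACANNNTGT (steroid receptor motifs), CACCC and GGGCGG (motifs of the KLF and SP family) or TATAAA.
KLF9: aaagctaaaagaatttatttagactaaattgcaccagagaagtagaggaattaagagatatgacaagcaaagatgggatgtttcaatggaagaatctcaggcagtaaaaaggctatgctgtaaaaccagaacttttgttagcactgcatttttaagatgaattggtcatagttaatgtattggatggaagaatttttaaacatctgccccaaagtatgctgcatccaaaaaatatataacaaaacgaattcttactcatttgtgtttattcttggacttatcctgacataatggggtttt
KLF4: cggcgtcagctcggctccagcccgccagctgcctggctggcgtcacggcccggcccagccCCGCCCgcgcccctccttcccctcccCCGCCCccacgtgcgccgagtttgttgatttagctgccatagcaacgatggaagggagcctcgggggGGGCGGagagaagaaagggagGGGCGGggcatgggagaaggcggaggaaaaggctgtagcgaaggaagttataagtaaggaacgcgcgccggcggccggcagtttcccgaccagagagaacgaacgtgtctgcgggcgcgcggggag
KLF6: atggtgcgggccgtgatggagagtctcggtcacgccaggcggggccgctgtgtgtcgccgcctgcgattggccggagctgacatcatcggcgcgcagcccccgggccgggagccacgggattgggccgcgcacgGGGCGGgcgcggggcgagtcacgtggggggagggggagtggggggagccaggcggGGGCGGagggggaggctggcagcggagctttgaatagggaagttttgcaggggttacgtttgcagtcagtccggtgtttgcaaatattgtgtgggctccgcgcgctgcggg
KLF4 held 4 GGGCGG matches and KLF6 held 2, and 45% of the 35116 windows in the table hold at least 1. The KLF9 window held no match to any of the 5 motifs, and its GC content was 32.7%, against 69% for KLF4, 70.7% for KLF6 and a median of 58.7% over all windows. Of all windows, 2.36% had a lower GC content than that of KLF9. Neither receptor motif was found in the windows of the 5 members, while AGAACA is in 14.8% and ACANNNTGT in 5.37% of all windows. Each window lies at the start of the RefSeq gene record, which need not be the start most used, and the AT-rich KLF9 window may belong to an upstream start. Where transcription starts in these cells was not measured, so its base composition and lack of matches describe this window and not the KLF9 promoter in use, and the absence of these letters from a window says nothing about the receptors.

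KLF9, a repressor and activator known for its induction by corticosteroids, was higher with each of the 4 compounds than with vehicle. Its levels were 7.23, 6.99 and 7.29 with MPA and 6.94, 7.02 and 6.88 with PROG. They were 6.12, 6.47 and 6.38 with DHT and 6.90, 6.69 and 6.79 with DEX, against 5.74, 5.65 and 5.70 with vehicle. Each of the 12 treated arrays was above each of the 3 vehicle arrays. As ratios to vehicle these were 2.78-fold with MPA, 2.38-fold with PROG, 1.54-fold with DHT and 2.14-fold with DEX. Among the probe sets called higher, KLF9 ranked 5 of 142 by size with DEX, 16 of 361 with PROG, 20 of 610 with MPA and 22 of 115 with DHT. The limma adjusted p ran from 8.95e-08 with MPA to 0.00348 with DHT. The order of the mean levels was MPA, PROG, DEX, DHT and vehicle. Of the neighbours in that order, MPA and PROG overlapped, as did PROG and DEX, and neither of these pairs was called.

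**Figure D1:**
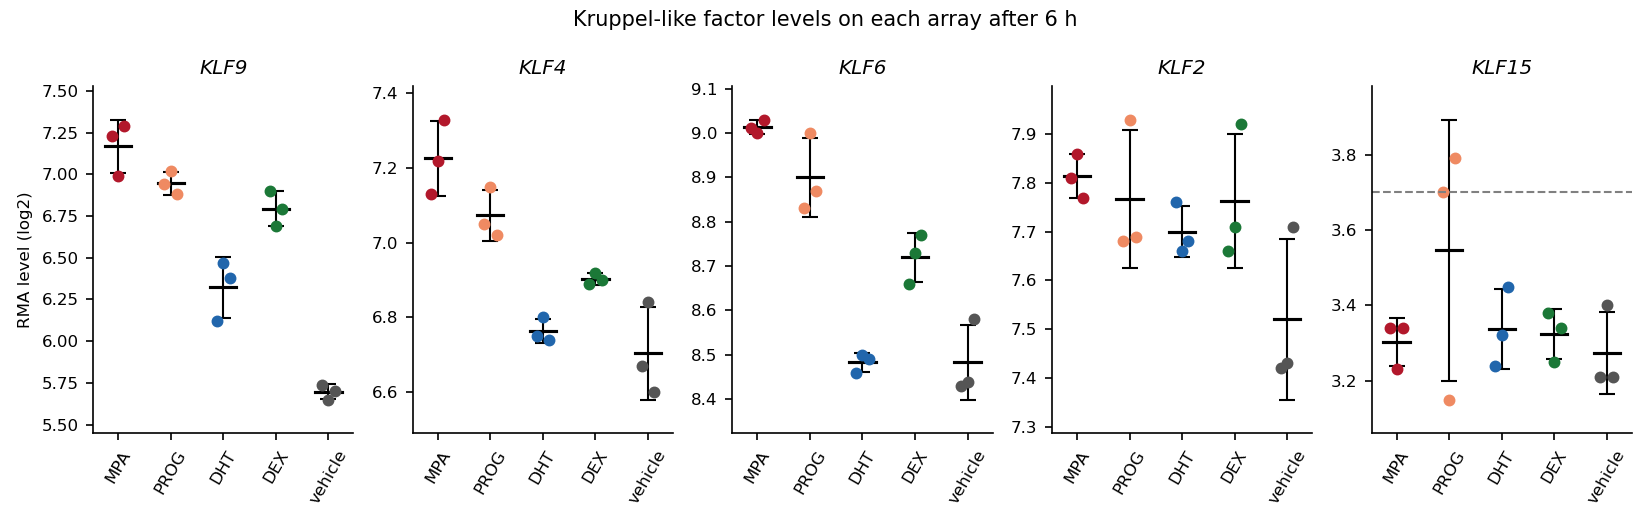
Levels of the 5 Kruppel-like factors on each array (points, RMA level, log2), with the mean (thick line) and SD (bars, n = 3 arrays) of each group. Each panel has its own vertical scale. KLF9 in all treated arrays lies above the vehicle arrays, and the dashed line in the KLF15 panel is the median of all values, 3.7.

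KLF4, a factor of epithelial differentiation and a reprogramming factor, rose with the 2 progestins. Its levels were 7.13, 7.22 and 7.33 with MPA and 7.05, 7.15 and 7.02 with PROG. DHT arrays read 6.75, 6.80 and 6.74 and DEX arrays 6.89, 6.92 and 6.90, against 6.67, 6.84 and 6.60 with vehicle. The MPA, PROG and DEX arrays all lay above the vehicle arrays, and the DHT arrays overlapped them. The difference from vehicle was 0.52 ± 0.064 with MPA (limma adjusted p = 8.33e-05) and 0.37 ± 0.064 with PROG (limma adjusted p = 0.00366). With DEX it was 0.20 ± 0.064 and not called (limma adjusted p = 0.225), and with DHT it was 0.06 ± 0.064, with an interval of -0.077 to 0.20. The PROG call ended when the 6 arrays of that pair were fitted alone (limma adjusted p = 0.0621).

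KLF6, a broadly expressed factor with known tumour suppressor activity, followed the same order of compounds. Its levels were 9.01, 9.00 and 9.03 with MPA and 8.83, 9.00 and 8.87 with PROG. They were 8.46, 8.50 and 8.49 with DHT and 8.66, 8.73 and 8.77 with DEX, against 8.43, 8.44 and 8.58 with vehicle. MPA, PROG and DEX arrays were all above the vehicle arrays, and DHT had the same mean as vehicle, 8.48. KLF6 rose with MPA by 0.53 ± 0.053 (limma adjusted p = 1.30e-05) and with PROG by 0.42 ± 0.053 (limma adjusted p = 2.52e-04). The DEX difference of 0.24 ± 0.053 missed the threshold (limma adjusted p = 0.0504) and passed it in 4 of 14 alternatives, 1 of them without vehicle 3 (limma adjusted p = 0.0320). For DHT the interval around a difference of 0 was -0.11 to 0.11.

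KLF2, known for endothelial and T cell quiescence, was called with no compound. Its levels were 7.81, 7.86 and 7.77 with MPA and 7.68, 7.93 and 7.69 with PROG. With DHT they were 7.76, 7.66 and 7.68 and with DEX 7.66, 7.71 and 7.92, against 7.42, 7.43 and 7.71 with vehicle. Vehicle 3 stood apart from the other vehicle arrays, and of the 4 compounds MPA alone had every array above it. The differences from vehicle were 0.29 ± 0.089 with MPA (limma adjusted p = 0.0756), 0.25 ± 0.089 with PROG, 0.18 ± 0.089 with DHT and 0.24 ± 0.089 with DEX. Their intervals reached 0.48, 0.44, 0.37 and 0.43 at the upper end. They lay wholly above 0 with MPA, PROG and DEX and held 0 with DHT. The lack of a call therefore does not show that KLF2 was unchanged. Without vehicle 3 the MPA difference was 0.39 ± 0.084 and called (limma adjusted p = 0.0157), and it was also called with an intensity trend and robust moderation (limma adjusted p = 0.0389).

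KLF15, which drives amino acid breakdown and glucose production in liver and muscle and is known as a direct glucocorticoid target there, was dim in all 5 groups. Its levels were 3.34, 3.23 and 3.34 with MPA and 3.70, 3.15 and 3.79 with PROG. They were 3.24, 3.32 and 3.45 with DHT and 3.38, 3.25 and 3.34 with DEX, against 3.21, 3.40 and 3.21 with vehicle. In PROG, replicates 1 and 3 were at or above the median of all values while replicate 2 was the lowest of the 15 arrays. No difference was called, and since both means of each pair were dim, neither a change nor its absence can be read. Without PROG 2 the difference from vehicle was 0.47 and passed the test (limma adjusted p = 0.00381), as did PROG against DHT, against DEX and against MPA. Replicates 1 and 3 then make up the PROG group, so its mean is no longer dim, while the other mean of each pair is.

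**Figure D2:**
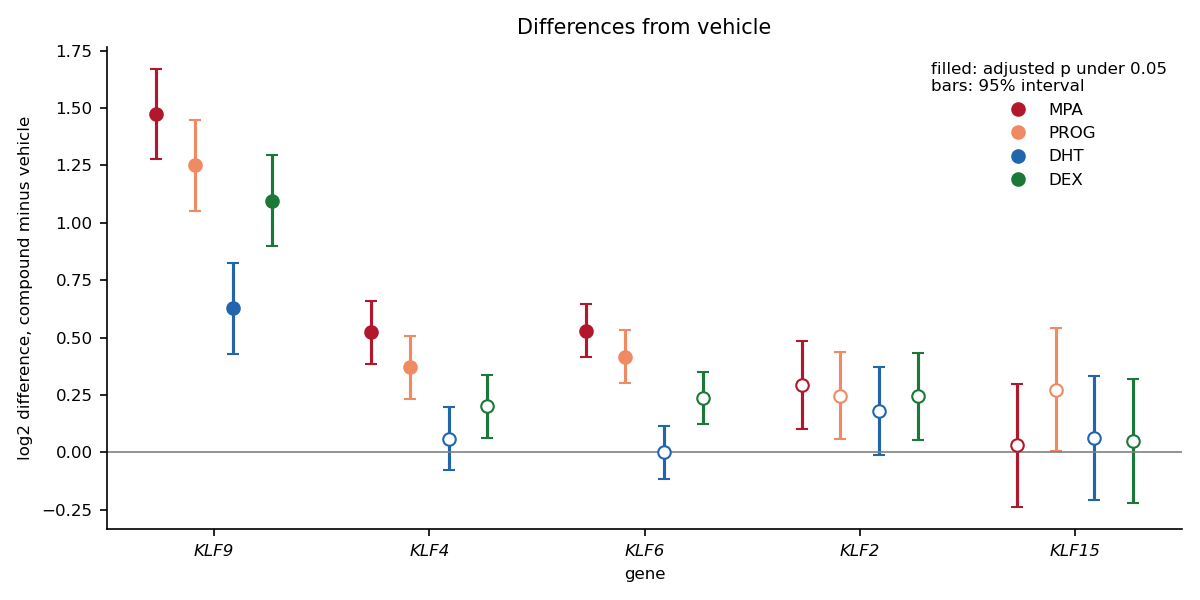
Log2 difference of each compound from vehicle for the 5 genes, with 95% intervals of the limma fit (n = 3 arrays per group). Filled points were called. KLF9 was called with all 4 compounds, KLF4 and KLF6 with MPA and PROG, and KLF2 and KLF15 with none.

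As a group, 3 of the 5 members were called higher with MPA, where 4.11% of all probe sets were called higher, and 3 with PROG, where the share of all probe sets was 2.43%. With DHT it was 1 member, against 0.775% of all probe sets, and with DEX 1 member, against 0.957%. No member was called lower in these comparisons, where 1.82% of all probe sets were with MPA and fewer with the other compounds. At an unadjusted p under 0.05 limma had 4 members with MPA, 5 with PROG, 1 with DHT and 4 with DEX. The 5 with PROG include the dim KLF15, and the share of all probe sets at that level was not counted. The groups did not overlap, with the treated arrays higher, for 4 members with MPA (10.1% of all probe sets), 3 with PROG (9.00%), 1 with DHT (7.05%) and 3 with DEX (9.06%). The median difference over the members was 0.52 with MPA, 0.37 with PROG, 0.063 with DHT and 0.24 with DEX, while over all probe sets it was within 0.01 of 0 in each comparison. The 4 comparisons share the vehicle arrays. The members were chosen with earlier results of these data known, so the shares here and below give scale and do not test the family.

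The compounds were then compared with each other at the same dose and time, in 6 pairs. MPA, which differs from progesterone by a methyl and an acetoxy substituent, gave higher means than PROG for KLF9, KLF4, KLF6 and KLF2, but no member was called between them. The differences were 0.22 ± 0.092 for KLF9 (interval 0.027 to 0.42), 0.15 ± 0.064 for KLF4 (0.017 to 0.29), 0.11 ± 0.053 for KLF6 (-0.001 to 0.23) and 0.047 ± 0.089 for KLF2 (-0.14 to 0.24). The limma adjusted p was at least 0.523 for each of these, and 0.29% of all probe sets were called. At an unadjusted p under 0.05 there were 2 members, and the share of all probe sets at that level was not counted. The arrays of MPA and PROG overlapped for each member, where 11.7% of all probe sets had no overlap, in either direction. At this share the overlap does not show that the members had like levels with MPA and PROG.

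Both progestins stood above DHT, which lacks the side chain of progesterone. Against DHT, MPA was higher for KLF9 by 0.85 ± 0.092, for KLF6 by 0.53 ± 0.053 and for KLF4 by 0.46 ± 0.064, and these 3 members were called, where 2.53% of all probe sets were called higher (limma adjusted p of 5.30e-05, 2.31e-05 and 4.56e-04). PROG was higher than DHT for KLF9 by 0.62 ± 0.092, for KLF6 by 0.42 ± 0.053 and for KLF4 by 0.31 ± 0.064, again 3 calls, where 1.36% of all probe sets were called higher. The KLF4 call between PROG and DHT (limma adjusted p = 0.0196) ended without any 1 of PROG 1, PROG 2, DHT 1, DHT 2 and DHT 3 (limma adjusted p up to 0.111). KLF9 and KLF6 stayed called against DHT in all 14 alternatives for each progestin.

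DEX, a fluorinated and methylated corticoid, gave values between those of PROG and DHT for KLF9, KLF4 and KLF6. MPA was higher than DEX for KLF9 by 0.38 ± 0.092, for KLF4 by 0.32 ± 0.064 and for KLF6 by 0.29 ± 0.053, and all 3 were called, where 2.49% of all probe sets were called higher. The KLF4 and KLF6 calls held in all 14 alternatives. The KLF9 call (limma adjusted p = 0.0333) held in 5 of 14 and ended without any 1 of MPA 1, MPA 3, DEX 2 and DEX 3 (limma adjusted p of 0.0968 to 0.130). No member was called between PROG and DEX, where 1.42% of all probe sets were called in either direction. An unadjusted p under 0.05 was found for 2 members, and the share of all probe sets at that level was not counted. The differences between PROG and DEX were 0.15 ± 0.092 for KLF9 (interval -0.043 to 0.35), 0.17 ± 0.064 for KLF4 (0.033 to 0.31) and 0.18 ± 0.053 for KLF6 (0.066 to 0.29). For KLF4 and KLF6 the PROG arrays nevertheless lay above the DEX arrays without overlap, as 6.76% of all probe sets did.

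DEX was higher than DHT for KLF9 by 0.47 ± 0.092 (limma adjusted p = 0.0312), the 1 member called, where 0.398% of all probe sets were called higher. That call ended without any 1 of DHT 1, DEX 1 and DEX 3 (limma adjusted p of 0.0964 to 0.131) and with a replicate block (limma adjusted p = 0.0670). The KLF6 difference of 0.24 ± 0.053 was not called (limma adjusted p = 0.0687), nor was that of KLF4, 0.14 ± 0.064 (limma adjusted p = 0.508). The DEX arrays lay above the DHT arrays without overlap for KLF9, KLF6 and KLF4, as they did for 7.65% of all probe sets.

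**Figure D3:**
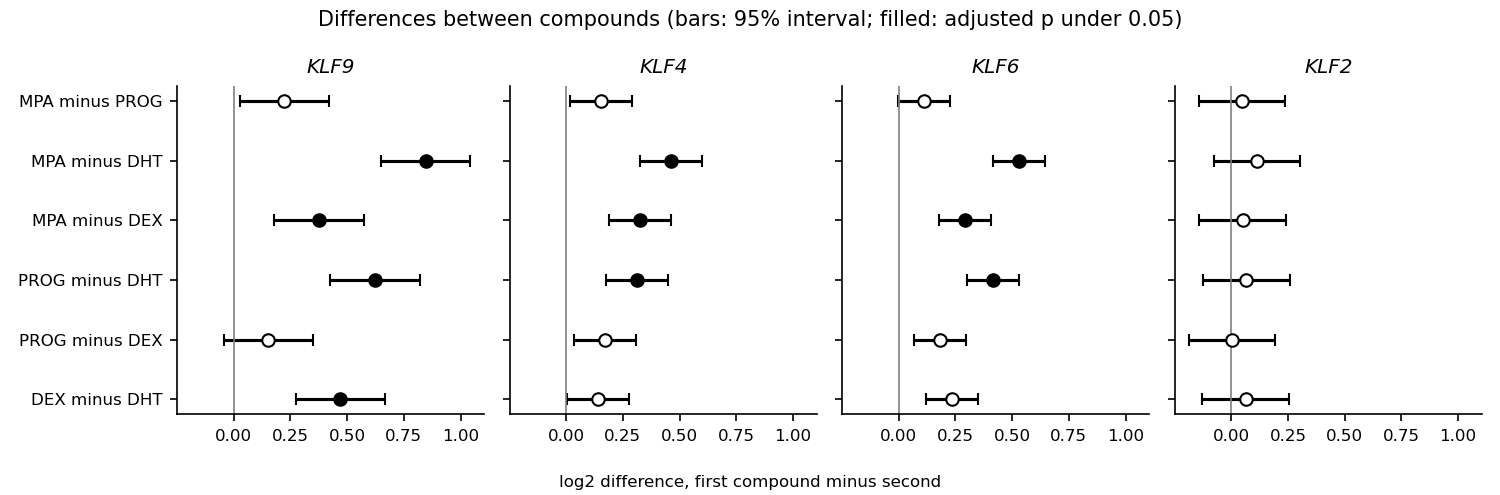
Log2 difference between compounds for KLF9, KLF4, KLF6 and KLF2, first compound minus second, with 95% intervals of the limma fit (n = 3 arrays per group). Filled points were called. No filled point stands for MPA minus PROG or PROG minus DEX.

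The rest of the family was measured by 12 further KLF genes and 9 SP genes, the related specificity proteins. Of the 12 KLF genes, 3 were called higher with MPA, 1 with PROG, 0 with DHT and 1 with DEX. Of all probe sets, 4.11%, 2.43%, 0.775% and 0.957% were called higher, in the same order of compounds. None of the 12 was called lower, where the share of all probe sets was 1.82% with MPA and less with the others. At an unadjusted p under 0.05 limma had 5, 5, 2 and 3 of them, in that order, and the share of all probe sets at that level was not counted. KLF5, which promotes proliferation in many epithelia, had levels of 8.06, 7.99 and 8.08 with MPA and 8.10, 7.99 and 7.94 with PROG, against 7.71, 7.72 and 7.69 with vehicle. It rose by 0.34 ± 0.058 with MPA (limma adjusted p = 0.00178) and by 0.30 ± 0.058 with PROG (limma adjusted p = 0.00816). KLF13, a close relative of KLF9, rose with MPA by 0.37 ± 0.077 (limma adjusted p = 0.00853), with levels of 4.64, 4.92 and 4.75 against 4.32, 4.34 and 4.55 with vehicle. Mean KLF7 levels were 9.13 with MPA, 9.07 with PROG, 9.06 with DHT and 8.93 with DEX, against 8.87 with vehicle. KLF7 rose with MPA by 0.26 ± 0.055 (limma adjusted p = 0.00907), and its other differences from vehicle were not called. The KLF13 and KLF7 calls ended when the arrays of that pair were fitted alone (limma adjusted p of 0.0900 and 0.0684). KLF10, an early target of TGF-beta, was called with DEX (0.24 ± 0.051, limma adjusted p = 0.0335), and leaving out vehicle 1, vehicle 2, DEX 1, DEX 2 or DEX 3 ended the call (limma adjusted p of 0.0768 to 0.152). The KLF10 call also ended with the arrays of the pair alone (limma adjusted p = 0.174), quantile normalization (0.0690) and all probe sets (0.0617). KLF18 has no named probe set here, and KLF14 and KLF17 were dim in all 5 groups, as KLF1 was in each compound's group.

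Among the SP genes, SP6, also called epiprofin and known from tooth and skin epithelium, was the 1 gene called, with MPA and with PROG. Of all probe sets, 4.11% were called higher with MPA and 2.43% with PROG. Its levels were 7.38, 7.16 and 7.33 with MPA and 6.91, 7.03 and 6.85 with PROG. With DHT they were 6.15, 6.12 and 6.30 and with DEX 6.07, 6.32 and 6.15, against 6.24, 5.80 and 6.02 with vehicle. Every MPA array was above every PROG array, as for 5.87% of all probe sets. Every PROG array was above the remaining 9, and DHT and DEX overlapped vehicle. SP6 rose 2.41-fold with MPA (1.27 ± 0.10, limma adjusted p = 1.18e-06) and 1.88-fold with PROG (0.91 ± 0.10, limma adjusted p = 6.49e-05). Between MPA and PROG the SP6 difference was 0.36 ± 0.10 and not called (limma adjusted p = 0.245). Both progestins also exceeded DHT and DEX, by 1.10 ± 0.10 and 1.11 ± 0.10 for MPA and by 0.74 ± 0.10 and 0.75 ± 0.10 for PROG, each of them called in all 14 alternatives. For DHT and DEX 0 SP genes were called by limma, where 0.889% and 1.11% of all probe sets were, and 0 had an unadjusted p under 0.05.

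**Figure D4:**
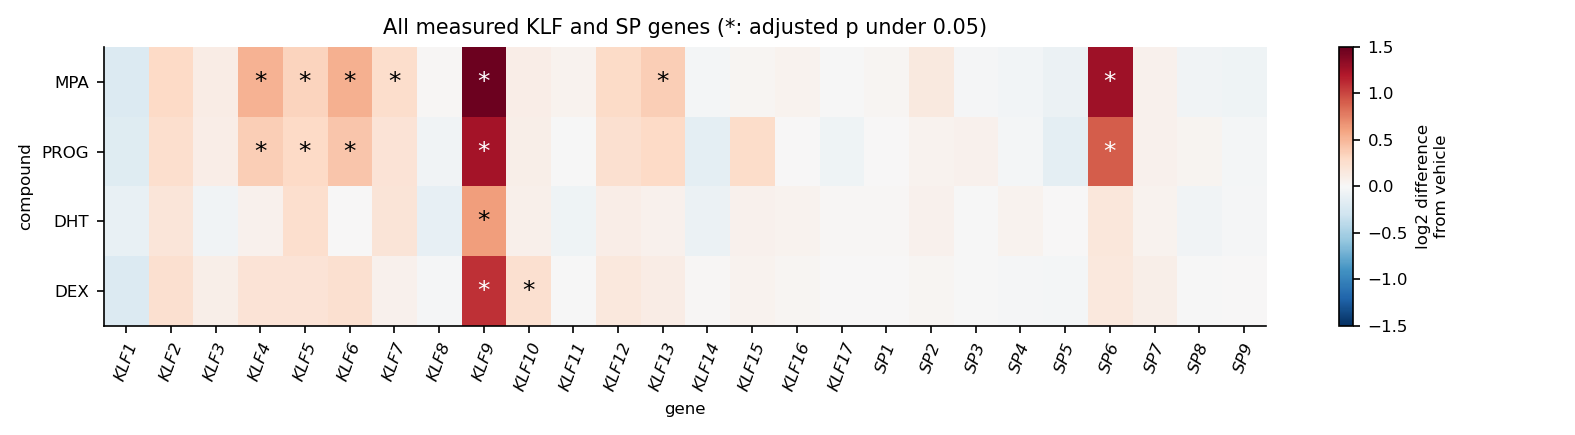
Log2 difference from vehicle (colour) of the 17 measured KLF and 9 SP genes with each compound, with asterisks on called genes (limma, n = 3 arrays per group). KLF9 carries an asterisk for each compound, and SP6 carries one for MPA and PROG.

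The genes for proteins that work with Kruppel-like factors or mark them for breakdown showed no call. Of 16 genes listed, among them the co-repressors CTBP1, CTBP2 and SIN3A, the acetyltransferases EP300 and CREBBP and the ubiquitin ligases WWP1 and ITCH, 15 were measured by 16 probe sets. With each of the 4 compounds 0 were called by limma against vehicle. Of all probe sets, 5.93% were called in either direction with MPA, 2.82% with PROG, 0.889% with DHT and 1.11% with DEX. At these shares 0 of 16 probe sets does not show that the genes were unchanged. At an unadjusted p under 0.05 there was 1 with MPA, 0 with PROG, 1 with DHT and 0 with DEX. Of 26 genes known as targets of these factors, mostly from other tissues, 14 were measured and 7 of those were dim in both groups of each comparison with vehicle. KRT19, a luminal keratin, rose by 0.37 ± 0.045 with MPA (limma adjusted p = 7.96e-05), and THBD, thrombomodulin, was called with MPA at 0.40 ± 0.093 (limma adjusted p = 0.0186). Leaving out vehicle 1, MPA 1 or MPA 3 ended the THBD call (limma adjusted p of 0.0685 to 0.0928). It also ended with the arrays of the pair alone (limma adjusted p = 0.0788) and with no moderation (limma adjusted p = 0.0516). KRT19 was also called at 0.21 ± 0.045 with PROG, 0.22 ± 0.045 with DHT and 0.22 ± 0.045 with DEX. The PROG call ended without vehicle 1, vehicle 2, PROG 2 or PROG 3, the DEX call without vehicle 1, vehicle 2, DEX 2 or DEX 3, and the DHT call without any 1 of its 6 arrays (limma adjusted p of 0.0541 to 0.147 over these). With the arrays of the pair alone all 3 of these calls ended (limma adjusted p of 0.136 with PROG, 0.208 with DHT and 0.227 with DEX). With all probe sets the DHT and DEX calls ended (limma adjusted p of 0.0758 and 0.0608). No listed target was called lower against vehicle, where 1.82% of all probe sets were with MPA and fewer with the other compounds.

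The receptor genes moved the other way. PGR, for the progesterone receptor, had mean levels of 7.66 with MPA, 7.72 with PROG, 8.05 with DHT and 8.10 with DEX, against 8.30 with vehicle, and fell with MPA and PROG (limma adjusted p of 3.35e-06 and 1.71e-05). ESR1, for estrogen receptor alpha, averaged 7.28 with MPA, 7.53 with PROG, 7.75 with DHT and 7.85 with DEX, against 8.05 with vehicle. It fell with MPA and PROG, and its call with DHT (limma adjusted p = 0.0486) ended without any 1 of the 6 arrays (limma adjusted p of 0.0517 to 0.175). That call held in 4 of 14 alternatives and also ended with the arrays of the pair alone (limma adjusted p = 0.169). NR3C1, for the glucocorticoid receptor, has no named probe set here.

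The genes whose levels ran most like each member were sought among the 287 named probe sets above the median of all values with group means at least 0.5 apart, leaving out the member itself, by Pearson r over the 15 arrays. The arrays share treatments and normalization, so r is a description of the pattern and not a test. KLF9 ran most like PISD, a mitochondrial phospholipid enzyme (r = 0.976), HSD11B2, the enzyme that inactivates cortisol (r = 0.961), and CRY2, a circadian repressor (r = 0.959). In these 3 genes, as in KLF9, the difference from vehicle was largest with MPA and smallest with DHT. For PISD it was 0.96 with MPA, 0.75 with PROG, 0.32 with DHT and 0.76 with DEX. KLF6 ran most like TFCP2L1, a grainyhead-family transcription factor (r = 0.982), STK39, a stress kinase (r = 0.967), and MRFAP1 (r = 0.967). TFCP2L1 differed from vehicle by 1.25 with MPA, 0.91 with PROG, -0.13 with DHT and 0.44 with DEX. KLF4 ran most like PLLP, a myelin and epithelial membrane protein (r = 0.961), MRFAP1 again (r = 0.953) and STOM, stomatin (r = 0.950). PLLP differed from vehicle by 1.43 with MPA and 0.92 with PROG, and by 0.09 with DHT and 0.24 with DEX. For KLF2 the closest genes reached r of 0.751 to 0.788 (TMEM139, ARHGEF28 and PREP), and for the dim KLF15 r was 0.446 to 0.574. Between members, r over the 15 arrays was 0.914 for KLF6 and KLF4, 0.873 for KLF6 and KLF9 and 0.859 for KLF9 and KLF4.

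The nearest measured protein-coding gene on each side of each member, 10 genes in all, gave 40 comparisons with vehicle and 0 calls by limma, with 7 at an unadjusted p under 0.05. Of all probe sets, 5.93% were called with MPA, 2.82% with PROG, 0.889% with DHT and 1.11% with DEX. The share of all probe sets at an unadjusted p under 0.05 was not counted. At these shares 0 calls does not show that the neighbours were unchanged. Their differences ran from -0.15 to 0.26, and the lowest limma adjusted p was 0.0689, for CEMIP2 beside KLF9 with MPA. Both ends of that range came from dim means beside KLF15, of CFAP100 with DHT and ROPN1B with PROG, so no size is read from them. All 7 were higher than vehicle. They were CEMIP2 with MPA, PROG and DEX (0.17, 0.13 and 0.13, each ± 0.051) and RAD23B beside KLF4 with DHT (0.10 ± 0.041). The others were dim, ACTL7B beside KLF4 with MPA and ROPN1B with MPA and PROG. With MPA, PITRM1 beside KLF6 differed from vehicle by 0.04 ± 0.038 and RAD23B by -0.017 ± 0.041.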

How the data were processed

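Total RNA of 15 samples was amplified, labelled with biotin and hybridised to Affymetrix arrays, per the labels' protocols. The deposited values are log2 levels, 1 column per array and 34878 probe sets, and the submitters' processing notes name Partek and RMA without versions or settings. No source used here gives a genome build. RMA brings arrays to a like distribution and can compress changes of dim probe sets. Values were used as deposited, and the number of arrays limits the precision. Groups and replicate numbers came from the sample titles.

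The platform annotation names 14841 probe sets. Models of 5 group means over the 15 arrays (10 residual and 3.81 prior degrees of freedom) were fitted with limma 3.58.1 in R 4.3.3, with moderated tests of 10 comparisons, 2-sided, with Benjamini-Hochberg adjustment within each. The code was tested on simulated data with 200 changed probe sets. Alternatives were a replicate block, all probe sets, bright probe sets alone, quantile normalization, the arrays of a pair alone, an intensity trend with robust moderation, no moderation, joint adjustment over the 4 or 6 comparisons of a family, and each array left out.

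Members and lists were chosen with earlier results of these data known. Named genes are the 5 members, called KLF and SP genes, up to 4 called genes of each list, PGR, NR3C1 and ESR1, and the 3 genes most like each member. Gene neighbours came from a RefSeq gene table. The neighbouring genes, co-factors and markers named were chosen after their values were seen, and the alternatives for SP6, THBD, KRT19, PGR and ESR1 were added after seeing the data. Promoter sequences are RefSeq's, GRCh38.p14. All 5 members matched by symbol.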

Additional observations from a re-analysis of the deposited data

How the results depend on the processing

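Of 690 alternative values of the 5 members over the 10 comparisons, 642 kept direction and side of the threshold, 21 lost and 13 gained a call, and 14 turned sign. KLF15 has no value among the bright probe sets. The number of members called between DEX and DHT, 1, became 0 with the replicate block, with no moderation and with the arrays of the pair alone, and 2 with bright probe sets, with the trend and with joint adjustment. For DEX against vehicle, 1 became 2 with bright probe sets, with the trend and with joint adjustment. With arrays left out in turn the number called was 3 to 4 for MPA and for PROG against vehicle, 1 for DHT and 1 to 2 for DEX against vehicle, 0 to 1 for MPA against PROG, for PROG against DEX and for DEX against DHT, 3 for MPA against DHT, and 2 to 3 for MPA against DEX and for PROG against DHT. The sign turned only for uncalled differences near 0 of KLF2 and KLF15 when 1 array was left out. KLF2 ran from -0.078 to 0.082 for PROG against DEX, -0.015 to 0.11 for PROG against DHT, -0.015 to 0.12 for DEX against DHT and -0.0017 to 0.13 for MPA against DEX. KLF15 ran from -0.0017 to 0.093 for MPA against vehicle, -0.082 to 0.023 for MPA against DHT, -0.057 to 0.017 for MPA against DEX and -0.062 to 0.043 for DEX against DHT.

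Over all named probe sets, dim ones included, arrays with the same replicate number did not deviate together (r of -0.054 to 0.067 over 30 pairs of arrays). Whether such arrays shared a culture cannot be told from this, and no label says. The replicate block took the KLF9 calls for MPA against DEX (limma adjusted p = 0.0609) and DEX against DHT (limma adjusted p = 0.0670). The KLF9 call for MPA against DEX was also lost with all probe sets (0.0519), no moderation (0.0798), joint adjustment (0.0560) and the pair alone (0.110), all limma adjusted p. The causes were not tested. Over all probe sets, calls ranged from 526 to 1304 for MPA, 255 to 588 for PROG, 54 to 229 for DHT and 44 to 229 for DEX against vehicle, where the values reported are 880, 419, 132 and 164. Between compounds they ranged from 7 to 105 for MPA against PROG (43 reported), 292 to 722 for MPA against DHT (521), 285 to 786 for MPA against DEX (602), 146 to 364 for PROG against DHT (254), 122 to 301 for PROG against DEX (211) and 39 to 166 for DEX against DHT (97). Dim probe sets such as that of KLF15 are limited by signal over background.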

Other observations

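Within groups, KLF2 and KLF6 deviated from their group means alike, with r = 0.854 over the 15 arrays, given as a description. Vehicle 3 was the highest vehicle array for both genes (7.71 and 8.58), and PROG 2 was the highest PROG array for both (7.93 and 9.00), as DEX 3 was among DEX arrays (7.92 and 8.77). The arrays ran the other way with MPA and DHT, where the highest array for KLF2, MPA 2 (7.86) and DHT 1 (7.76), was the lowest of its group for KLF6 (9.00 and 8.46). KLF9 and KLF4 deviated with r = 0.129 and KLF6 and KLF4 with r = 0.0097.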
